A study of Mus musculus with 2 samples.

Results

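The genes described here encode the machinery that licenses, fires and copies DNA replication origins. Members were the rows of the deposited gene table whose symbol is on a list of 47 such genes, and all 47 were found among 32287 genes. The list holds 8 genes of origin recognition and helicase loading, 11 of the replicative helicase, 4 of origin firing, 9 of the polymerases and primase, 6 of the sliding clamp and its loader, 5 of single-strand binding and Okazaki fragment maturation, and 4 of fork protection. All 47 passed the low count filter that left 15877 genes for testing.

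Single cells came from primary cultures of the lateral ventricular walls of newborn (P0-P2) mice, a source of progenitors of the ependyma, the ciliated lining of the brain ventricles. There were 2 cultures with 1 library each: replicate 1 was C57BL/6N and replicate 2 was C57BL/6J, both taken 2 days after a change to serum-free medium, with no other treatment. Substrain, culture and library cannot be told apart, and the animals behind each culture are not given in the sources used here. With the library in the model, p-values measure only how far differences between populations varied between these 2 libraries, pooled over the populations fitted. The comparisons are between populations named in the deposited cell metadata. These are deuterosomal cells in an early, a mid and a late stage, then early MCCs and MCCs (multiciliated cells), set against progenitors I and II, together called non-cycling progenitors, or against cycling progenitors.

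In a dividing cell, the origin recognition complex, Cdc6 and Cdt1 load the MCM2-7 ring onto origins in G1, which is called licensing. In S phase the kinase Cdc7 with its activator Dbf4, and the firing factors Ticrr and Mcm10, turn the loaded ring into an active helicase with Cdc45 and the GINS complex. Primase and the polymerases then copy the strands behind it with the clamp Pcna, and Fen1 and Lig1 join the Okazaki fragments. Deuterosomal cells are the stage at which differentiating multiciliated cells amplify their centrioles, and they use part of the cell cycle machinery without dividing.

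Levels are CPM, the UMIs of a gene per 1000000 UMIs summed over all cells of a population in a library, and paired values are those of replicate 1 and replicate 2, in that order. The libraries held 12028 and 4373 cells and 173510950 and 70611931 UMIs, and 13 barcodes occurred in both. Mid deuterosomal cells were deeper, with medians of 17984 and 20436 UMIs per cell, than early deuterosomal cells (11585 and 14576), progenitors I (10490 and 13128) and progenitors II (10184 and 12434), and were near cycling progenitors (16952 and 20007). The deposited names fitted their markers. The summed level of Mki67, Top2a and Ccna2 was 1581 and 2051 CPM in cycling progenitors, 648 and 830 in mid and 523 and 638 in late deuterosomal cells, 166 and 263 in early deuterosomal cells, and 11.6 to 20.9 over the non-cycling progenitor sums. The summed level of the deuterosomal markers Deup1, Ccdc78 and Mcidas was highest in mid deuterosomal cells (1188 and 1231 CPM). By the deposited cell cycle class, 693 of 880 (78.8%) and 292 of 353 (82.7%) mid deuterosomal cells were S/G2, 72.7% and 69.1% of early deuterosomal cells were G0, and 99.9% of MCCs of replicate 1 and all 264 of replicate 2 were G0. The sources used here do not say how names and classes were assigned, and they may rest on such transcripts. So 44 of 47 replication genes being higher and 0 lower in cycling than in non-cycling progenitors (edgeR quasi-likelihood test, 0 lower also at an unadjusted p under 0.05 and in DESeq2; 17.4% of all genes tested were higher and 21.3% lower) is a check of the names and not a result.

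**Figure D1:**
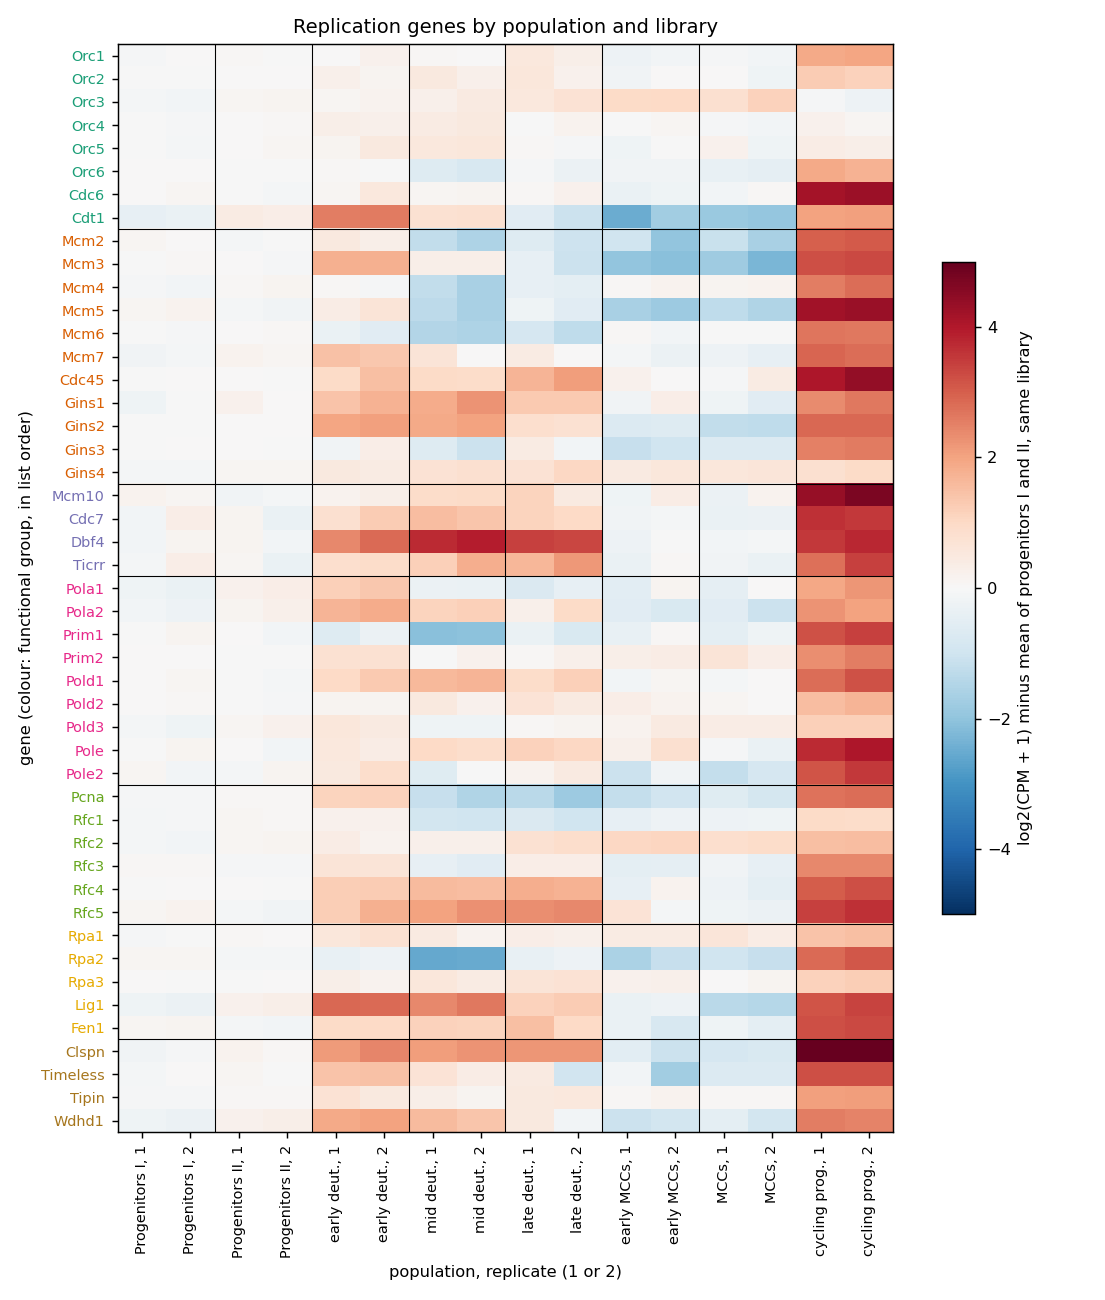
Level of each of the 47 replication genes (rows, in the order of their roles) in each population and library (columns), as log2(CPM + 1) minus the mean of progenitors I and II of the same library. In mid deuterosomal cells Dbf4, Lig1, Gins2 and Clspn are high while Rpa2, Prim1, Mcm5 and Mcm2 are below the progenitors, and in cycling progenitors nearly every row is high.

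Sums over the functional groups followed different courses along the lineage, and in such sums the most abundant genes weigh most. Dbf4 made up most of the firing sum in the deuterosomal stages, as its levels below show. Summed over its 4 genes, firing stood at 37.5 and 45.3 CPM in early, 93.4 and 96.1 in mid and 76.9 and 65.8 in late deuterosomal cells, 5.45 and 6.25 in early MCCs and 5.76 and 5.22 in MCCs, against 4.91 to 7.87 CPM over the non-cycling progenitor sums. The 8 origin recognition and loading genes covered a narrower range, with 220 and 218 CPM in early deuterosomal cells and 164 to 179 CPM over the later stages, against 146 to 160 CPM in non-cycling progenitors. The 9 polymerase and primase genes were at 161 and 161 CPM in early and 107 and 101 CPM in mid deuterosomal cells, against 83.9 to 102 CPM in non-cycling progenitors. The 6 clamp and loader genes were at 422 and 417 CPM in early and 234 and 214 CPM in mid deuterosomal cells, against 246 to 273 CPM in non-cycling progenitors, so their mid deuterosomal sums were the lower ones. The 11 helicase genes were at 335 and 326 CPM in early and 246 and 227 CPM in mid deuterosomal cells, against 167 to 183 CPM in non-cycling progenitors. Within this group the MCM2-7 ring genes alone were lower in mid deuterosomal cells, at 72.9 and 62.2 CPM, against 98.5 to 115 CPM in non-cycling progenitors. Cycling progenitors stood above all of these in every group, from 132 and 143 CPM for firing to 1109 and 1189 CPM for the helicase. In bulk sums of this kind fewer cells with a transcript and less transcript per cell cannot be told apart.

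In early deuterosomal cells 27 replication genes (57.4%) rose and 3 (6.38%) fell relative to non-cycling progenitors. Of all genes tested, 21.8% were higher and 19.8% lower, and the median log2 fold change was 0.69 over the replication genes and −0.03 over all genes. The genes that rose most belong to loading (Cdt1), firing (Dbf4), Okazaki fragment joining (Lig1) and fork protection (Clspn), and all 4 fork protection genes rose. Origin recognition did not follow, since Cdt1 was the only 1 of its 8 genes past the test.

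Cdt1, which brings the MCM ring to origins, was at 57.0 and 56.9 CPM in early deuterosomal cells, against 6.37 and 6.55 CPM in progenitors I and 11.8 and 10.95 CPM in progenitors II. Both early deuterosomal libraries lay far above all 4 progenitor sums, and the log2 fold change was 2.67 ± 0.13 (SE, edgeR adjusted p = 9.65e-15). Lig1, the DNA ligase that seals Okazaki fragments, was at 138 and 145 CPM, against 15.3 to 24.1 CPM over the progenitor sums (log2 fold change 2.86 ± 0.11). Dbf4 was at 33.1 and 40.2 CPM, against 4.34 to 6.01 CPM (2.73 ± 0.15). Clspn, the claspin adaptor of the fork checkpoint, was at 13.1 and 17.5 CPM, against 1.90 to 2.69 CPM (2.61 ± 0.22). The clamp Pcna was at 168 and 161 CPM, against 70.0 to 80.0 CPM (1.08 ± 0.21), and Pola1, the catalytic subunit of polymerase alpha, was at 39.0 and 40.9 CPM, against 12.3 to 19.6 CPM (1.25 ± 0.12). Cdc7 (1.61 ± 0.33) and Cdc45, the helicase cofactor (1.51 ± 0.34), rose as well. None of these 8 genes had a library inside the progenitor range, but all had passed the test and no such share over all genes is given.

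The 3 genes that fell in early deuterosomal cells were the primase subunit Prim1 (log2 fold change −0.63 ± 0.20), the helicase subunit Mcm6 (−0.52 ± 0.15) and Rpa2, a subunit of the single-strand binding complex RPA (−0.40 ± 0.15). In replicate 2 alone Prim1 stood at −0.38. Without the library term 0 genes fell by edgeR (2 at an unadjusted p under 0.05), DESeq2 left Mcm6, and cells thinned to 5000 UMIs left Prim1. With 34 cells drawn per population and library Prim1 changed sign (0.39). The other helicase ring genes split: Mcm3 (1.78 ± 0.16) and Mcm7 (1.38 ± 0.13) rose, and Mcm2 (0.39, adjusted p = 0.082), Mcm5 (0.54, adjusted p = 0.0843) and Mcm4 (−0.06, adjusted p = 0.74) did not pass. Orc1 (0.52), Orc3 (0.09), Cdc6 (1.04), Mcm10 (0.66) and Pole, the catalytic subunit of polymerase epsilon (0.69), did not pass either, and Cdc6 had at most 0.684 CPM in the early deuterosomal and non-cycling progenitor sums. With 34 cells drawn per population and library, 11 genes rose, where 963 of 10438 genes tested were higher.

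Mid deuterosomal cells carried the replication genes in opposite directions. Relative to non-cycling progenitors 29 of the 47 (61.7%) rose and 11 (23.4%) fell. Of all genes tested 38.9% were higher and 33.2% lower, so the share that fell was under the background and the falls below are described gene by gene. The medians were 0.47 for the replication genes and 0.07 for all genes. The 4 firing genes and the 4 fork protection genes all rose. The helicase split into 5 higher and 5 lower, the clamp and loader into 3 and 3, and single genes of origin recognition, primase and RPA fell while their partners rose or did not pass. With 34 cells drawn per population and library the counts were 10 higher and 7 lower, where 2429 of 10438 genes tested were higher and 2218 lower. Taken over all 47 genes, both shares in that draw were under those of all genes. How many of the 47 were tested on that draw is not given.

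Dbf4 changed most upwards. It was at 85.1 and 87.9 CPM in mid deuterosomal cells, against 4.34 to 6.01 CPM over the 4 non-cycling progenitor sums (log2 fold change 4.09 ± 0.13, adjusted p = 2.20e-19). Its kinase partner Cdc7 was at 4.21 and 3.49 CPM, against 0.378 to 1.18 CPM (2.32 ± 0.28). Ticrr (treslin), which helps to bring Cdc45 to licensed origins, was at 2.39 and 3.36 CPM, against 0 to 0.586 CPM (2.73 ± 0.41), and stood at 1.96 in replicate 1 alone. Mcm10 was at 1.71 and 1.42 CPM, against 0.189 to 0.608 CPM (2.19 ± 0.44). In all 4 firing genes, each past the test, both mid deuterosomal libraries were above every progenitor sum, which adds no support to the test.

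Among origin recognition genes, Orc2 (log2 fold change 0.44), Orc3 (0.41 ± 0.11), Orc4 (0.52), Orc5 (0.68) and Cdt1 (0.90 ± 0.15) rose and Orc6 fell (−0.68 ± 0.10). Orc3 was at 43.2 and 47.2 CPM, against 31.1 to 39.0 CPM over the non-cycling progenitor sums, and lost its call without the library term. Orc1 had 4 and 1 UMIs in mid deuterosomal cells (0.33, adjusted p = 0.743) and Cdc6 had 6 and 2 UMIs (0.60, adjusted p = 0.471), so neither could be judged at this depth.

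Within the helicase, 4 of the 6 ring genes fell. Mcm5 was at 0.968 and 0.518 CPM in mid deuterosomal cells, from 17 and 4 UMIs, against 3.12 to 4.22 CPM over the progenitor sums (log2 fold change −2.12 ± 0.36, adjusted p = 8.88e-06). Mcm2 was at 2.45 and 2.46 CPM, against 6.499 to 9.35 CPM (−1.61 ± 0.23). Mcm4 (−1.38) and Mcm6 (−1.54) fell with them. For all 4 genes, each past the test, the mid deuterosomal libraries lay below every progenitor sum, a description only. Mcm7 rose (0.47 ± 0.13), with 0.71 in replicate 1 alone and 0.07 in replicate 2 alone, and Mcm3 did not pass (0.38, adjusted p = 0.0663). GINS, the 4-subunit part of the active helicase, split in the same cells. Gins2 was at 73.8 and 71.9 CPM, against 16.6 to 19.4 CPM (2.07 ± 0.10), Gins1 (2.37) and Gins4 (0.82) rose, and Gins3 fell to 0.854 and 0.259 CPM, against 1.60 to 2.00 CPM (−1.41 ± 0.35). Cdc45 rose (1.35 ± 0.32).

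The subunits of primase parted in mid deuterosomal cells. Prim1, the catalytic subunit of primase, was at 1.48 and 1.04 CPM in mid deuterosomal cells, against 6.70 to 9.87 CPM over the progenitor sums (log2 fold change −2.65 ± 0.25, adjusted p = 7.41e-10). Its partner Prim2 was at 10.2 and 10.5 CPM, against 8.78 to 10.8 CPM (0.12, adjusted p = 0.459), inside the progenitor range. Pola1 did not pass (−0.28, adjusted p = 0.0815), and Pola2, the accessory subunit of polymerase alpha, rose (1.32 ± 0.16). Pold1, the catalytic subunit of polymerase delta (1.98), Pole (1.499 ± 0.32, but −0.092 with 34 cells drawn per population and library) and Pold2 (0.45, and 0.27 in replicate 2 alone) rose, and Pold3 and Pole2 did not pass.

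Rpa2 fell furthest of all 47 genes, to 3.64 and 2.59 CPM in mid deuterosomal cells, against 18.0 to 28.3 CPM over the progenitor sums (log2 fold change −2.78 ± 0.19, adjusted p = 1.71e-12). The other RPA subunits rose by small amounts, Rpa1 by 0.40 ± 0.12 (0.23 in replicate 2 alone) and Rpa3 by 0.54 ± 0.09. Pcna was at 33.9 and 25.0 CPM, against 70.0 to 80.0 CPM (−1.26 ± 0.24). Of the loader subunits that place the clamp on DNA, Rfc5 (2.35), Rfc4 (1.68) and Rfc2 (0.30) rose, and Rfc1, the large subunit (−0.92), and Rfc3 (−0.45) fell. Lig1 was at 101 and 123 CPM, against 15.3 to 24.1 CPM (2.62 ± 0.11), Fen1, the flap nuclease, rose by 1.32, and Clspn was at 12.8 and 15.4 CPM, against 1.90 to 2.69 CPM (2.61 ± 0.20). In the same comparison Timeless (0.84) stood at 0.49 in replicate 2 alone.

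**Figure D2:**
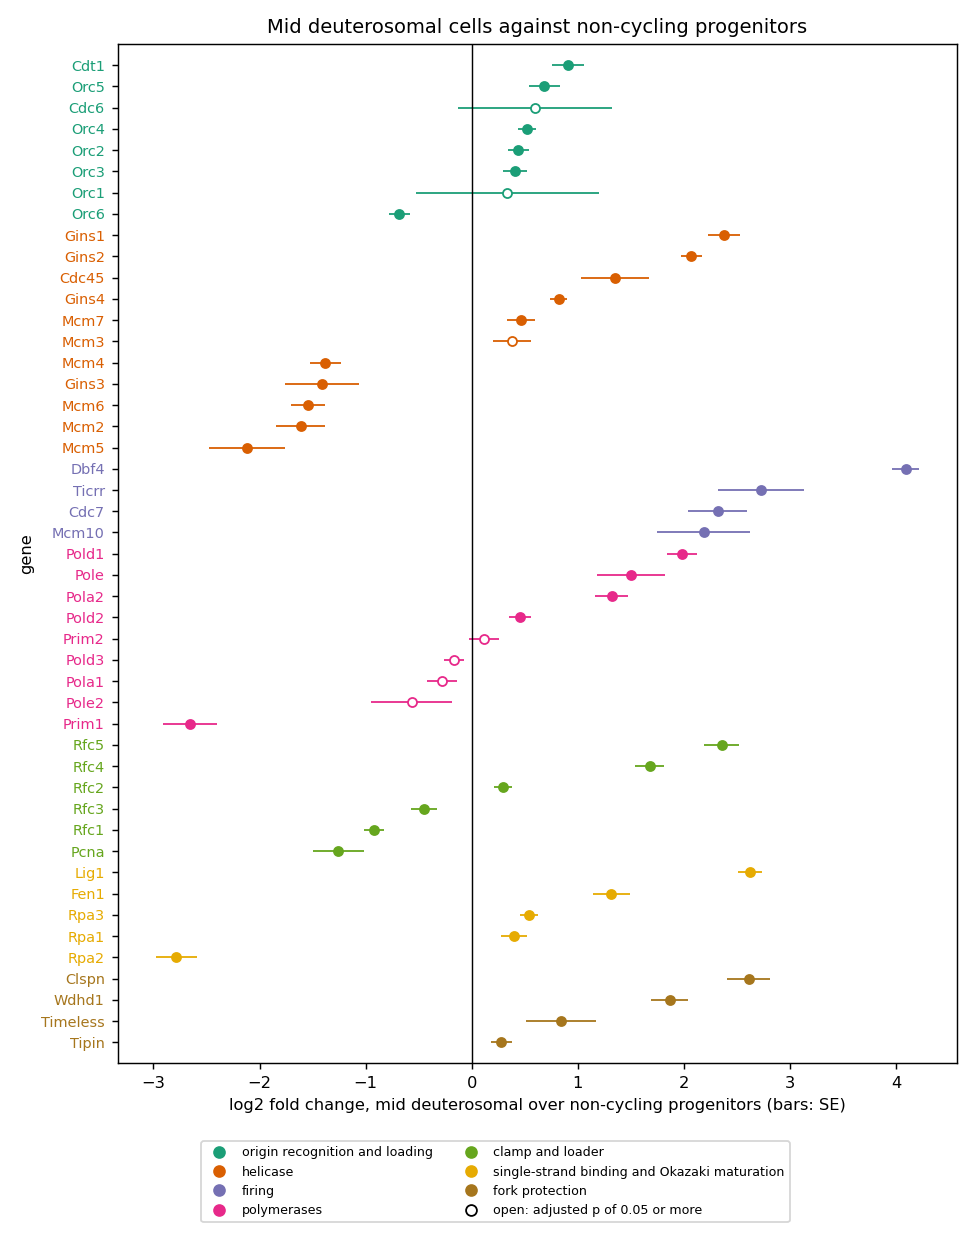
Log2 fold change of the 47 replication genes in mid deuterosomal cells over non-cycling progenitors (points, with SE bars), grouped and coloured by role, with open points for an adjusted p of 0.05 or more. Points on both sides of 0 occur in every group except firing and fork protection, from Dbf4 at 4.09 to Rpa2 at −2.78.

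The make-up of the MCM2-7 transcripts differed by stage. Mcm3 and Mcm7 together gave 66.2% of the MCM2-7 UMIs in mid deuterosomal cells of replicate 1 (848 of 1281, exact Clopper-Pearson 95% interval 63.5 to 68.8) and 64.7% in replicate 2 (311 of 481, interval 60.2 to 68.9). In early deuterosomal cells they gave 60.6% and 61.9%, and in late deuterosomal cells 45.0% and 42.2%. In MCCs they gave 23.3% and 21.5%, where Mcm4 and Mcm6 made up most of the rest. The same share was 31.7% and 33.4% in progenitors I, 34.4% and 32.6% in progenitors II, and 36.3% and 34.5% in cycling progenitors. The summed level of the 6 ring genes was 72.9 and 62.2 CPM in mid deuterosomal cells and 173 and 176 CPM in early deuterosomal cells, against 98.5 to 115 CPM over the non-cycling progenitor sums and 800 and 889 CPM in cycling progenitors. Intervals cover counting error only.

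Promoters of genes that moved in opposite directions are shown because members within 1 complex parted in mid deuterosomal cells. Sequences from 250 bases before to 50 bases after the start, from RefSeq on GRCm38.p6, were matched for 39 of the 47 genes (48 entries, since a gene can have several starts), and Mcm4, Gins1, Gins2, Gins4, Prim2, Pole, Rfc2 and Tipin had no entry. The genes and motifs below were chosen after their values were seen. Each sequence runs 5′ to 3′ on the strand of its gene, and capitals mark matches on either strand to CCAAT, to TTTGAA (the core of the CHR element) or to the E2F motif, searched as TTTCCCGC, TTTGGCGC, TTTCGCGC and TTTGCCGC. Mcm5 (chr8:75109259-75109558, plus strand) holds 3 CCAAT matches and 2 overlapping E2F matches, and Rpa2 (chr4:132768110-132768409, plus strand) holds 3 CCAAT matches. Prim1 (chr10:128014965-128015264, plus strand) holds 1 CCAAT match. Of the genes that rose over non-cycling progenitors, Dbf4 (chr5:8422667-8422966, minus strand) holds 1 TTTGAA match and Cdt1 (chr8:122567765-122568064, plus strand) holds 1 E2F match. Relative to early deuterosomal cells Cdt1 fell.
Mcm5: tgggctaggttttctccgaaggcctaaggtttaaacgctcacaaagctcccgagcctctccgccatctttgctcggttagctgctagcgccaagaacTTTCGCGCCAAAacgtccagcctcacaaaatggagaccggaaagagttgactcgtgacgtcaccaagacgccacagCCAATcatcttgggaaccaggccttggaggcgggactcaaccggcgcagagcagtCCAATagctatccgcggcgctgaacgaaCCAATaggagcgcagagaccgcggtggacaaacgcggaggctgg
Rpa2: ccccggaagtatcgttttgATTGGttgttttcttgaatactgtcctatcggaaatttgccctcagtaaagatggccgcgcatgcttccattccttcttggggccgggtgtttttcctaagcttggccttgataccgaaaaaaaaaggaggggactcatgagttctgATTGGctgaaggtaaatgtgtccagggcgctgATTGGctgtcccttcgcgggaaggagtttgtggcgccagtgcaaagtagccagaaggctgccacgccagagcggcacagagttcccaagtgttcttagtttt
Prim1: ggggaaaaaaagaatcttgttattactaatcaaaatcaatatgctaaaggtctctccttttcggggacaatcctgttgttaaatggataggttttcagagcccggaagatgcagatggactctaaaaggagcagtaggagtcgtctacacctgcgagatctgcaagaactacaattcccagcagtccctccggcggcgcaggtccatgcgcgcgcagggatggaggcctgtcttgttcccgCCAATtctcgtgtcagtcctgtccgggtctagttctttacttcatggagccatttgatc
Dbf4: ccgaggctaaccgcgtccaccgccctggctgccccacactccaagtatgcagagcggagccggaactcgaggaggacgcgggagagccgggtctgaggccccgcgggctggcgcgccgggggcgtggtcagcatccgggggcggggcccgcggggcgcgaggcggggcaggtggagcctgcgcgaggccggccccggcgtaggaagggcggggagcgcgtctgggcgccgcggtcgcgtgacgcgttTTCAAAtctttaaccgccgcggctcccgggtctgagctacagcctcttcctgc
Cdt1: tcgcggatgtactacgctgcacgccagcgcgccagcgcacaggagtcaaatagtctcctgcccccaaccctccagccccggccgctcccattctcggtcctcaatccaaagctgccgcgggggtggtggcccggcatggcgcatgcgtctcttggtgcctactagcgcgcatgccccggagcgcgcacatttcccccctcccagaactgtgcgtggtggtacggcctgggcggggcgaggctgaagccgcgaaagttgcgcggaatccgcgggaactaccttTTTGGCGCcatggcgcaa

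Counting a gene where any of its entries holds the letters, CCAAT occurred in 10 of the 10 genes that were lower in mid deuterosomal cells, in 10 of the 23 that were higher, in 3 of the 6 that did not pass, and in 37.4% of all 32851 promoters in the table. The higher genes with CCAAT include Mcm7, Rpa1 and Rpa3, partners of the lower Mcm5 and Rpa2. The E2F motif occurred in 4 of the 10 lower genes, 6 of the 23 higher genes and all 6 that did not pass (Orc1, Cdc6, Mcm3, Pola1, Pold3 and Pole2), and in 2.26% of all promoters. TTTGAA occurred in 2 of the 10 lower genes, Gins3 and Mcm2, and in 5 of the 23 higher genes, and in 17.9% of all promoters. The shares over all promoters are per entry, while the members are counted per gene, and a gene with several entries has more chances of a match. These matches are a description of the letters in the windows and were not tested.

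Of the replication genes, 11 (23.4%) rose and 21 (44.7%) fell in mid relative to early deuterosomal cells, where 28.2% of all genes tested were higher and 20.8% lower (medians −0.24 and 0.08). All 6 ring genes, both primase subunits and Pcna fell. Of the 8 origin recognition and loading genes Cdt1 and Orc6 fell and Orc2 and Orc4 rose, and of the loader subunits Rfc1 and Rfc3 fell and Rfc4 and Rfc5 rose. Of the firing genes Dbf4 and Mcm10 rose and Cdc7 and Ticrr did not pass. Mcm5 was at 0.968 and 0.518 CPM in mid deuterosomal cells, against 5.31 and 6.29 CPM in early deuterosomal cells (log2 fold change −2.65 ± 0.40). Pcna fell to 33.9 and 25.0 CPM, against 168 and 161 CPM (−2.33 ± 0.27), and Rpa2 fell to 3.64 and 2.59 CPM, against 19.95 and 16.1 CPM (−2.38 ± 0.23). Prim1 fell by 2.02, Mcm2 by 2.01, Cdt1 by 1.76 and Pola1 by 1.53 on the log2 scale. The stages did not overlap for any of these 7 genes. All 7 had passed the test, so this adds no support, and the share over all genes is not given.

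Dbf4 rose between the stages, to 85.1 and 87.9 CPM in mid deuterosomal cells, against 33.1 and 40.2 CPM in early deuterosomal cells (1.35 ± 0.14). Pold1 (0.69 ± 0.16), Rfc5 (0.78 ± 0.19) and Mcm10 (1.53 ± 0.56) also rose. Mcm10 lost its call in DESeq2, without the library term, in thinned cells and without the deepest 5% of cells, and Rfc5 lost its call in DESeq2. Orc1 (−0.19), Orc3 (0.32), Cdc6 (−0.44), Cdc45 (−0.16), Cdc7 (0.70), Pole (0.81) and Clspn (0.00) did not pass, and Cdc45 was at 0.12 in replicate 1 alone and −0.59 in replicate 2 alone. The number of replication genes that rose was 3 without the library term, 6 in DESeq2 or without the deepest 5% of cells, and 7 without unannotated cells. Over all genes, 2559 of 15877 were higher without the library term and 3931 of 15877 in DESeq2. Without the deepest 5% of cells 3513 of 15481 were higher, and without unannotated cells 3609 of 15464. With 34 cells drawn per population and library 1 replication gene rose and 8 fell, where 691 of 10438 genes tested were higher and 651 lower. Gins3 (−1.46) was at −0.69 in replicate 1 alone, and Pold2 (0.38) at 0.19 in replicate 2 alone.

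In late relative to mid deuterosomal cells 8 replication genes (17.0%) rose and 11 (23.4%) fell, where 8.61% of all genes tested were higher and 13.2% lower (medians 0.08 and −0.01). The genes that rose were Rpa2, Prim1, Gins3, Mcm5, Mcm4, Rfc3, Orc6 and Rfc2, and those that fell include Cdt1, Lig1 and Gins2. The size factors of DESeq2 moved the median of all genes to 0.10, and with the RLE factors of edgeR the split over all genes was 2023 higher and 1528 lower in place of 1367 and 2095, with 8 replication genes each way.

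Rpa2 was at 20.1 and 16.0 CPM in late deuterosomal cells, against 3.64 and 2.59 CPM in mid deuterosomal cells (log2 fold change 2.43 ± 0.24). Prim1 was at 7.51 and 3.91 CPM, against 1.48 and 1.04 CPM (2.21 ± 0.34). Mcm5 was at 3.25 and 2.13 CPM, against 0.968 and 0.518 CPM (1.77 ± 0.50), and Gins3 at 2.84 and 1.42 CPM, against 0.854 and 0.259 CPM (1.79 ± 0.43). The stages did not overlap for these 4 genes, which had passed the test, so this describes them and adds no support. Mcm5 and Gins3 lost their calls without the deepest 5% of cells, Mcm5 also in thinned cells. Late deuterosomal cells were the deepest population, with medians of 20650 and 22456 UMIs per cell, and 101 of 440 and 24 of 125 of them were among the deepest 5% of their library, as were 129 of 880 and 52 of 353 mid deuterosomal cells.

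Cdt1 fell to 5.48 and 3.56 CPM in late deuterosomal cells, against 15.6 and 15.4 CPM in mid deuterosomal cells (−1.71 ± 0.24). Wdhd1, which links polymerase alpha to the helicase (−1.45 ± 0.25), Lig1 (−1.40 ± 0.14) and Gins2 (−1.24 ± 0.13) fell with it. Dbf4 was at 68.1 and 57.9 CPM, against 85.1 and 87.9 CPM (−0.50 ± 0.14), a call lost with RLE factors, in DESeq2, without the library term and in thinned cells. Orc1 (1.53), Orc3 (0.17), Cdc6 (−0.04), Mcm2 (0.71), Mcm10 (0.08), Cdc45 (0.95, adjusted p = 0.0515), Cdc7 (−0.55), Pola1 (−0.41), Pole (0.14), Pcna (−0.26) and Clspn (0.01) did not pass. The number that fell was 7 in DESeq2 and 6 without the library term, where 1436 and 664 of 15877 genes tested were lower. With 34 cells drawn per population and library 0 rose by edgeR (4 at an unadjusted p under 0.05) and 2 fell. Of all 10438 genes tested on that draw, 72 were higher and 163 lower. DESeq2 was not run on that draw. Pola2 (−0.82) stood at −0.36 and Mcm3 (−0.99) at −1.59 in replicate 2 alone.

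MCCs, the mature population, had most replication genes at or below the level of non-cycling progenitors: 6 (12.8%) rose and 20 (42.6%) fell, where 28.7% of all genes tested were higher and 28.0% lower (medians −0.36 and −0.03). Cdt1 fell to 1.69 and 1.46 CPM in MCCs, against 6.37 to 11.8 CPM over the progenitor sums (log2 fold change −2.42 ± 0.23). Mcm3 fell to 3.48 and 2.09 CPM, against 13.6 to 14.5 CPM (−2.16 ± 0.24), and Mcm5 to 1.01 and 0.626 CPM, against 3.12 to 4.22 CPM (−2.00 ± 0.31). Pole2, an accessory subunit of polymerase epsilon, fell by 2.21 on the log2 scale, Mcm2 by 1.55, Clspn by 1.42 and Pcna by 0.75. For Cdt1, Mcm3 and Mcm5, all past the test, no MCC library reached the progenitor range, which is a description of these genes only.

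Orc3 was at 63.8 and 77.2 CPM in MCCs, against 31.1 to 39.0 CPM over the progenitor sums (0.93 ± 0.11, adjusted p = 8.83e-08). Rfc2 was at 98.4 and 94.96 CPM, against 45.3 to 58.3 CPM (0.84 ± 0.08), and Gins4 at 71.4 and 65.9 CPM, against 39.5 to 50.5 CPM (0.56 ± 0.09). Prim2 (0.59 ± 0.13, with 0.30 in replicate 2 alone and −0.78 with 34 cells drawn per population and library), Rpa1 (0.47, and 0.32 in replicate 2 alone) and Pold3 (0.34) also rose. Mcm4 (0.12) and Mcm6 (−0.06), both low in mid deuterosomal cells, did not pass in MCCs. Dbf4 (−0.18), Cdc7 (−0.96), Mcm10 (−0.81), Cdc45 (0.10), Pole (−0.17), Orc1 (−0.53) and Cdc6 (−0.53) did not pass. Pola1 fell (−0.37) only with the main settings and some alternatives: its call was lost with RLE factors, in DESeq2, without the library term and without the deepest 5% of cells, it was −0.04 in replicate 2 alone, and Pcna lost its call with RLE factors. With 34 cells drawn per population and library 2 genes rose and 7 fell, where 1319 of 10438 genes tested were higher and 952 lower. In replicate 2 alone Prim1 (−0.51) stood at −0.28, Rfc3 (−0.28) at −0.47, Pola2 (−0.79) at −1.35 and Timeless (−1.78) at −1.04.

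Over the deuterosomal stages, early MCCs and MCCs, the stage at which a gene was highest differed between the libraries for 14 of the 47 genes. Early deuterosomal cells held the peak of 17 genes, among them Cdt1, Mcm2, Mcm3, Mcm5, Mcm7, Pcna, Pola1 and Lig1. Mid deuterosomal cells held the peak of 6, Orc4, Orc5, Gins1, Cdc7, Dbf4 and Pold1. Late deuterosomal cells held the peak of 9, among them Cdc45, Ticrr, Pole, Rfc4 and Rfc5, and early MCCs that of Rfc2. None of the 9 genes with a late peak passed the edgeR test in late over mid deuterosomal cells. Their adjusted p ran from 0.0515 for Cdc45 to 0.905 for Gins4. Mid deuterosomal cells were also the lowest stage of 8 genes in both libraries, Orc6, Mcm4, Mcm6, Prim1, Prim2, Pold3, Rfc1 and Rpa2. The peak stage was above the level of cycling progenitors in both libraries for Orc3, Orc4, Orc5, Cdt1 and Dbf4. All these peaks and lowest stages describe the order of levels, with no test and no share over all genes.

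**Figure D3:**
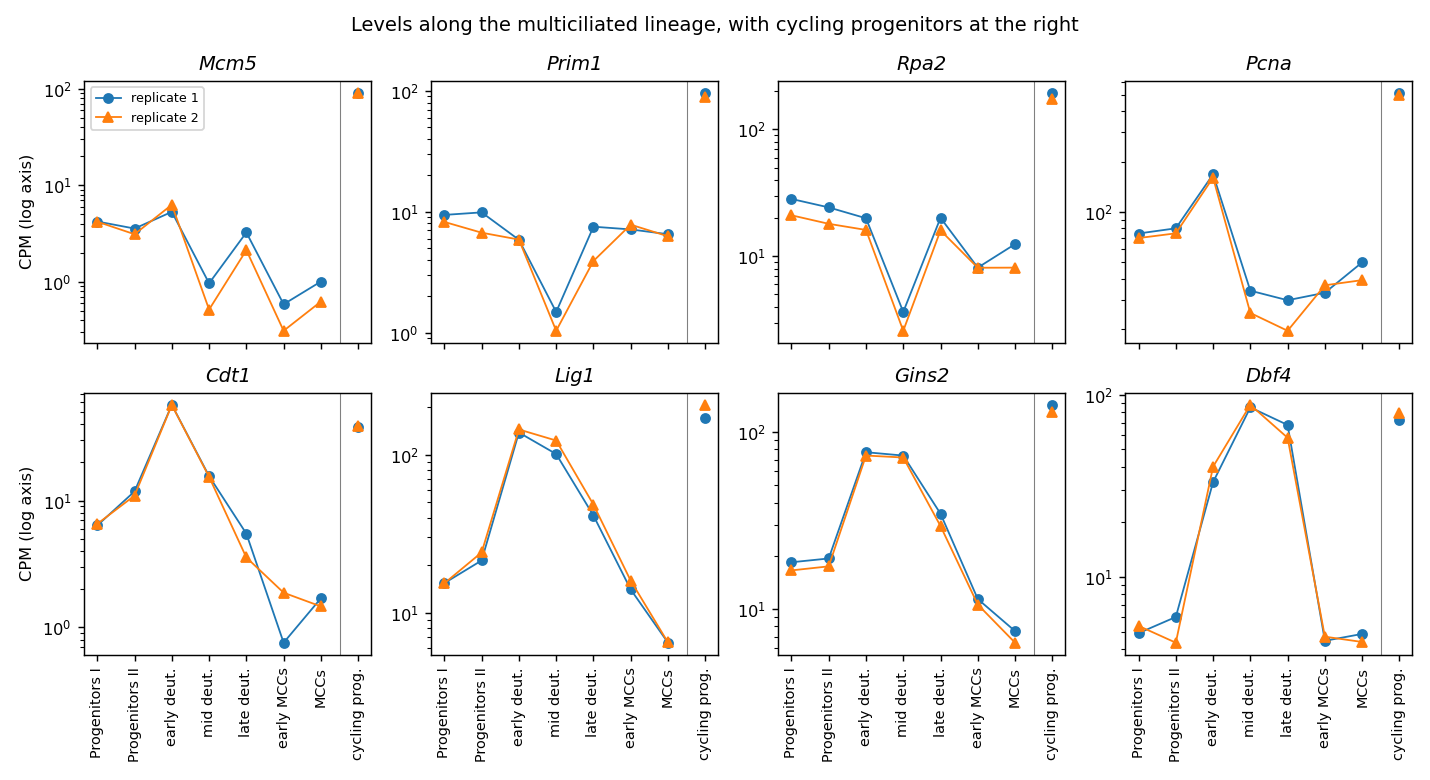
Level in CPM (log axis) of 8 replication genes along the multiciliated lineage in each library, with cycling progenitors at the right of the line. Mcm5, Prim1 and Rpa2 dip in mid deuterosomal cells and are higher again in late ones, Cdt1 falls between early and mid deuterosomal cells (−1.76 on the log2 scale), Lig1 and Gins2 fall between mid and late ones (−1.40 and −1.24), and Dbf4 is highest in mid deuterosomal cells (85.1 and 87.9 CPM).

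Set against cycling progenitors, mid deuterosomal cells had less of nearly every replication transcript: 2 genes (4.26%) were higher and 42 (89.4%) lower, where 34.4% of all genes tested were higher and 28.6% lower (medians −2.07 and 0.07). Population names may rest on such transcripts, so these counts may be set in part by the naming. The same limit holds for every comparison with cycling progenitors below, and it was not tested. Genes with few UMIs in deuterosomal cells, among them Cdc6, Orc1 and Mcm5, can pass the low count filter through populations where they are higher. The sizes of their falls against cycling progenitors are therefore uncertain, here and below. The spread among the genes was wide. Mcm5 was at 0.968 and 0.518 CPM in mid deuterosomal cells, against 89.9 and 90.3 CPM in cycling progenitors (log2 fold change −6.62 ± 0.25). Prim1 was at 1.48 and 1.04 CPM, against 96.0 and 88.3 CPM (−5.998 ± 0.22), and Rpa2 at 3.64 and 2.59 CPM, against 194 and 174 CPM (−5.73 ± 0.19). Cdc6, the ATPase that helps to load the ring, was at 0.342 and 0.259 CPM, against 21.5 and 21.4 CPM (−5.88 ± 0.42). Every library of mid deuterosomal cells was far below both cycling progenitor libraries for these 4 genes, which were named as the largest falls.

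Dbf4 stood at the other end, with 85.1 and 87.9 CPM in mid deuterosomal cells, against 72.7 and 79.7 CPM in cycling progenitors (0.30 ± 0.13, adjusted p = 0.0542). Orc3 was at 43.2 and 47.2 CPM, against 34.8 and 28.1 CPM (0.60 ± 0.15, adjusted p = 0.00103), and Orc4 at 44.1 and 50.1 CPM, against 37.8 and 37.4 CPM (0.42 ± 0.11). Gins4 (0.00 ± 0.10) and Orc5 (0.34 ± 0.19) did not pass. Gins1 (−0.38) and Lig1 (−0.64) were lower by small amounts. Cdt1 (−1.20), Cdc7 (−2.26), Pola1 (−2.33), Pole (−3.14), Clspn (−3.19), Cdc45 (−3.37), Orc1 (−3.90), Pcna (−3.96), Mcm10 (−4.07) and Mcm2 (−4.73) were lower in mid deuterosomal cells. Orc3 lost its call in thinned cells. With 34 cells drawn per population and library 0 replication genes were higher by edgeR, also at an unadjusted p under 0.05. Of all 10438 genes tested on that draw, 1847 were higher.

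The comparison was repeated inside the S/G2 class, with 693 and 292 mid deuterosomal cells against 206 and 97 cycling progenitors. Class names may rest on such transcripts too. Here 1 replication gene (2.13%) was higher and 39 (83.0%) were lower, where 36.0% of all 12946 genes tested were higher and 32.8% lower (medians −1.90 and 0.04). Prim1 was at 0.771 and 0.755 CPM in S/G2 mid deuterosomal cells, against 70.3 and 80.1 CPM in S/G2 cycling progenitors (log2 fold change −6.52 ± 0.23). Mcm5 was at 0.701 and 0.302 CPM, against 48.3 and 65.5 CPM (−6.48 ± 0.27), and Rpa2 at 2.10 and 1.96 CPM, against 130 and 137 CPM (−5.97 ± 0.17). Mcm2 (−4.50), Pcna (−4.22), Cdc6 (−4.12), Orc1 (−4.01), Mcm10 (−3.85), Cdc45 (−3.21), Pole (−2.83), Clspn (−2.83), Pola1 (−2.44) and Cdc7 (−2.19) were lower in S/G2 mid deuterosomal cells.

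Within S/G2, 7 genes did not pass the test: Orc4, Orc5, Cdt1, Gins1, Gins4, Pola2 and Wdhd1. Gins4 was at 78.7 and 72.5 CPM in S/G2 mid deuterosomal cells, against 70.6 and 72.8 CPM in S/G2 cycling progenitors (0.15 ± 0.11), and Gins1 was at 14.3 and 14.8 CPM, against 13.5 and 12.7 CPM (0.20 ± 0.21). Cdt1 was at 10.6 and 12.5 CPM, against 11.1 and 15.9 CPM (−0.12 ± 0.21). Dbf4 was at 91.2 and 93.3 CPM, against 124 and 143 CPM (−0.46 ± 0.10), so in this class mid deuterosomal cells were lower. Orc3 was the gene that was higher, at 43.0 and 47.4 CPM, against 35.0 and 25.0 CPM (0.59 ± 0.14), with 0.36 in replicate 1 alone and 0.97 in replicate 2 alone. Both Orc3 and Dbf4 lost their calls in thinned cells, where 0 replication genes were higher by edgeR and 1 at an unadjusted p under 0.05. Of all 10440 genes tested in thinned cells, 3045 were higher.

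By cell cycle class, the helicase ring of cycling progenitors was high in G1 (1397 and 1466 CPM summed over MCM2-7) and S (1262 and 1330) and lower in S/G2 (435 and 591) and G0 (288 and 340). Mid deuterosomal cells had 141 and 127 CPM in S and 57.9 and 51.8 in S/G2, so both of their classes lay under the G0 cycling progenitors. In early deuterosomal cells, most of which were G0, the G0 class had 157 and 166 CPM. Clamp and loader genes in S/G2 were at 212 and 199.8 CPM in mid deuterosomal cells, against 890 and 999 CPM in cycling progenitors, and polymerase and primase genes at 95.9 and 93.8 CPM, against 358 and 406 CPM. Origin recognition and loading genes in S/G2 were closer, at 168 and 173 CPM in mid deuterosomal cells, against 287 and 281 CPM in cycling progenitors. These class levels are a description with no test.

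**Figure D4:**
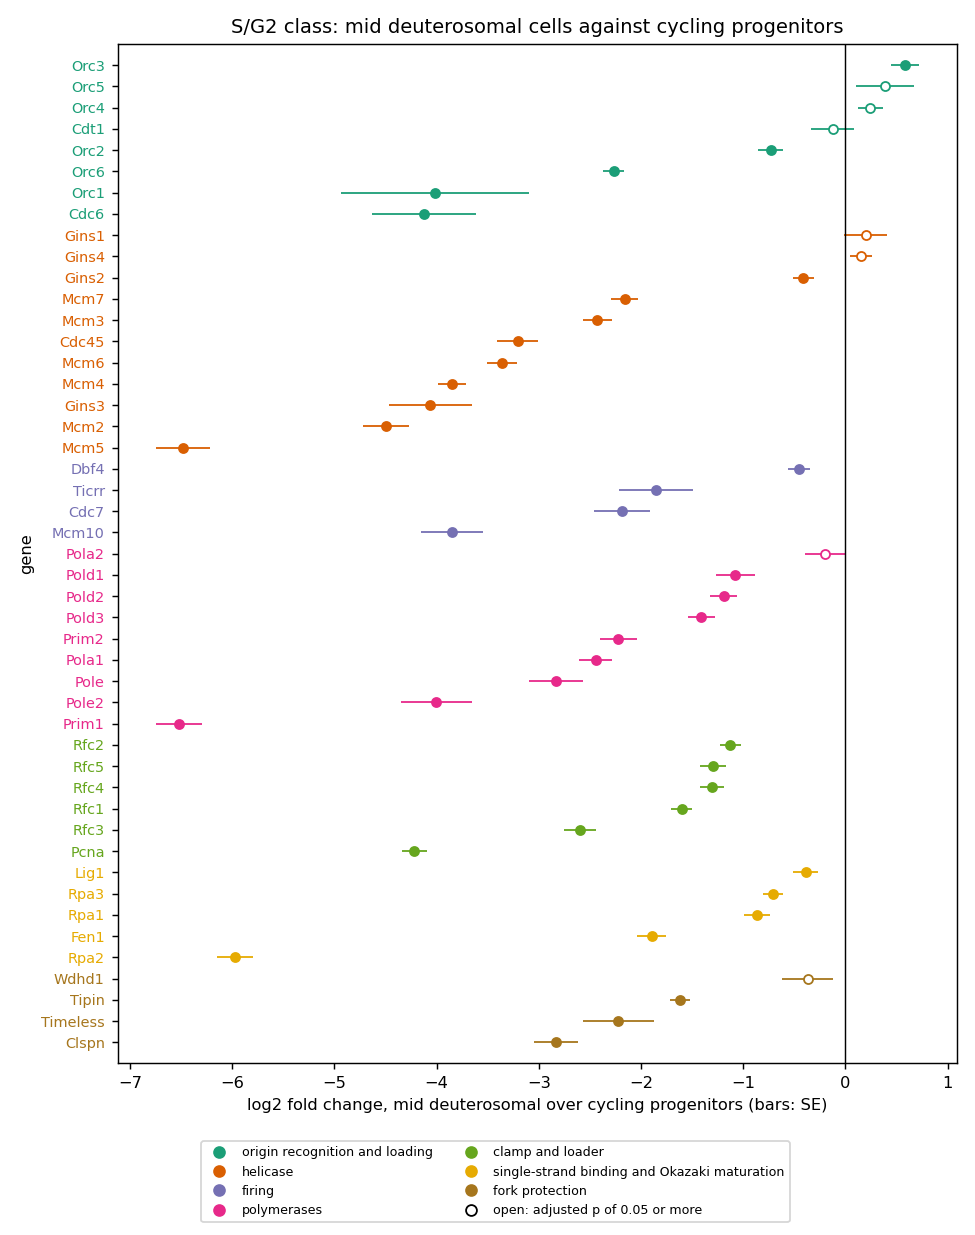
Log2 fold change of the 47 replication genes in S/G2 mid deuterosomal cells over S/G2 cycling progenitors (points, with SE bars), grouped and coloured by role, with open points for an adjusted p of 0.05 or more. Orc3 (0.59) is the 1 filled point right of 0, and Prim1 (−6.52), Mcm5 (−6.48) and Rpa2 (−5.97) lie furthest to the left.

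Class S was compared after the data were seen, and this class name may also rest on such transcripts. In S mid deuterosomal cells 3 genes (6.38%) were higher than in S cycling progenitors and 43 (91.5%) lower, where 27.2% of all genes tested were higher and 24.7% lower (median of the replication genes −2.11). Dbf4 was at 64.7 and 63.4 CPM, against 49.8 and 36.1 CPM (0.56 ± 0.18), which is the opposite direction to S/G2, and lost its call in thinned cells and without the deepest 5% of cells. Orc3 (0.54) and Orc4 (0.49, and 0.23 in replicate 2 alone) lost their calls with RLE factors, in DESeq2 and without the deepest 5% of cells, and Orc3 stood at −0.0024 in thinned cells. In S early deuterosomal cells 2 genes (4.26%) were higher than in S cycling progenitors and 42 (89.4%) lower, where 20.1% of all genes tested were higher and 18.7% lower (median of the replication genes −1.97). Cdt1 was at 78.6 and 69.8 CPM in S early deuterosomal cells, against 74.0 and 60.1 CPM in S cycling progenitors (0.13 ± 0.17), and did not pass. Mcm5 was at 2.33 and 4.60 CPM, against 131 and 127 CPM (−5.18 ± 0.31), and Mcm10 was at 0.778 and 0.767 CPM, against 51.6 and 39.8 CPM (−5.87 ± 0.57). With 98 and 72 S early deuterosomal cells, the low levels of Mcm5 and Mcm10 rest on few UMIs, so the sizes of these falls are uncertain. Orc4 (0.54) and Dbf4 (0.49, with 0.30 in replicate 1 alone and 0.82 in replicate 2 alone) were the higher genes, Orc4 lost its call in thinned cells, and Dbf4 lost its call with RLE factors, in DESeq2 and without the library term and stood at −0.033 in thinned cells.

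Cell by cell, each cell was thinned to 5000 UMIs so that populations of different depth could be compared, and 607 shallower cells were left out. A UMI of any MCM2-7 gene was found in 27.4% of mid deuterosomal cells of replicate 1 (240 of 875, 95% interval 24.5 to 30.5) and 24.0% of replicate 2 (83 of 346, interval 19.6 to 28.8). The share was 58.4% and 54.0% in early deuterosomal cells, 31.1% and 26.3% in late deuterosomal cells and 33.2% and 32.6% in MCCs, against 82.6% and 85.8% in cycling progenitors. Dbf4 was found in 35.2% and 33.8% of mid deuterosomal cells, against 27.6% and 25.3% of cycling progenitors. MCCs, used as the type with little Dbf4, had it in 2.24% and 1.53% of cells, at unthinned medians of 13123 and 16802 UMIs per cell among the cells kept, against 18026 and 20559 in mid deuterosomal cells.

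Lig1 was found in 38.3% and 42.8% of mid deuterosomal cells, against 48.6% and 48.5% of cycling progenitors, and in 2.73% and 3.07% of MCCs. Rpa2 was found in 2.17% and 1.45% of mid deuterosomal cells, against 52.7% and 51.1% of cycling progenitors, and in 6.51% and 3.83% of MCCs, so the share in mid deuterosomal cells was not above that of MCCs. A UMI of Mcm5 was found in 5 of 875 and 2 of 346 mid deuterosomal cells, against 35.7% and 31.3% of cycling progenitors. The clamp and loader genes were found in 68.5% and 67.3% of mid deuterosomal cells, and the origin recognition and loading genes in 58.7% and 57.5%. Without thinning the MCM2-7 share in mid deuterosomal cells was 64.5% and 63.5%.

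**Figure D5:**
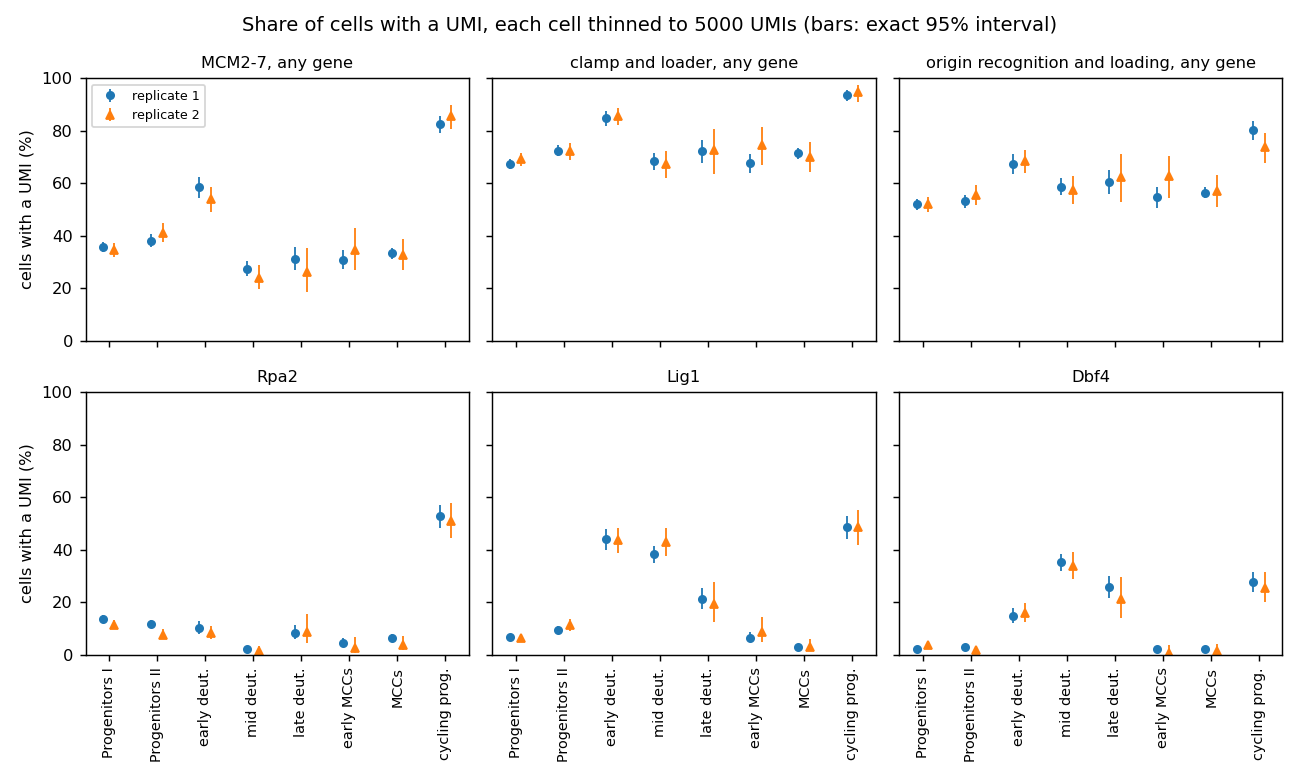
Share of cells with at least 1 UMI after thinning each cell to 5000 UMIs, by library, in progenitors, cycling progenitors and the stages of the lineage, for 3 groups of replication genes and 3 single genes, with exact 95% intervals. Among these populations the MCM2-7 share is highest in cycling progenitors (82.6% and 85.8%) and lowest in mid deuterosomal cells (27.4% and 24.0%), with late ones close (31.1% and 26.3%), and the Dbf4 share is highest in mid deuterosomal cells (35.2% and 33.8%).

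A list of 32 other genes of the pathway, covering control of licensing, nucleotide supply, chromatin assembly at the fork and further firing and fork factors, split as well. In early deuterosomal cells 20 (62.5%) rose and 1 (3.12%) fell relative to non-cycling progenitors, against 21.8% and 19.8% of all genes tested, with Pclaf, the clamp-associated factor (log2 fold change 3.91), and Dtl, which directs Cdt1 to degradation (3.39), the highest, and Pold4, a small subunit of polymerase delta, the gene that fell (−1.04). In mid deuterosomal cells 19 (59.4%) rose and 6 (18.8%) fell, against 38.9% and 33.2% of all genes tested, with Pclaf (4.97) and the histone chaperone Asf1b (4.38) the highest, and Pold4 (−3.85) and Dut, the dUTPase (−0.83), the lowest. Pold4 was at 3.02 and 1.81 CPM in mid deuterosomal cells, against 31.2 to 48.6 CPM over the non-cycling progenitor sums. Relative to early deuterosomal cells 9 (28.1%) rose and 9 (28.1%) fell in mid deuterosomal cells, where 28.2% of all genes tested were higher and 20.8% lower, so the share that rose was at the background, with Asf1b (2.28) and the helicase Recql4 (1.65) the highest and Pold4 (−2.82) and Chaf1b, a chromatin assembly subunit (−1.34), the lowest.

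In late relative to mid deuterosomal cells 3 of the 32 (9.38%) rose and 7 (21.9%) fell, where 8.61% of all genes tested were higher and 13.2% lower, so the share that rose was near the background, with Donson (1.03) and Pold4 (1.00) the highest and Dtl (−1.52) and Chaf1b (−1.18) the lowest. In replicate 2 alone Donson stood at 0.46 and Pold4 at 0.33. In MCCs 4 (12.5%) rose and 6 (18.8%) fell relative to non-cycling progenitors, both under the 28.7% and 28.0% of all genes tested, with Atad5, which unloads the clamp (2.70), and Chaf1a (1.61) the highest and Chaf1b (−1.50, and −2.46 in replicate 2 alone) and Dtl (−1.18) the lowest. Against cycling progenitors 2 of the 32 (6.25%) were higher and 26 (81.2%) lower in mid deuterosomal cells, against 34.4% and 28.6% of all genes tested, with the ubiquitin ligase genes Cul4a (0.87) and Ddb1 (0.79) higher and the thymidine kinase Tk1 (−6.93) and Dscc1 (−5.78) lowest. In S/G2 2 (6.25%) were higher and 25 (78.1%) lower, against 36.0% and 32.8% of all genes tested, with the same 4 genes at the ends. Gmnn, the inhibitor of Cdt1, was added after its values were seen: it was at 35.9 and 31.1 CPM in mid deuterosomal cells, against 10.1 to 17.5 CPM over the non-cycling progenitor sums (1.33 ± 0.15) and 299 and 278 CPM in cycling progenitors (−3.001 ± 0.16).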

How the data were processed

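Single-cell UMI counts were analysed as deposited by the authors, in 1 matrix of whole-number counts for both libraries, with a deposited table of population names and cell cycle classes. Per the submitters' processing notes, Cell Ranger 3 and Cell Ranger 5.0.1 and the mm10 build were used; which version made which library, the filters on cells, the treatment of doublets and the way cells were named are not given in the sources used here. Matrix rows carry no names, so their order was taken from the deposited gene table and checked with marker genes. Depth is given with the populations in the report, and 13 barcodes occurred in both libraries.

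Counts were summed per library and population where each library had at least 20 cells (26 sums of 13 populations; fibroblasts were left out), or per population and class (30 sums of 15). edgeR 4.0.16 in R 4.3.3 gave TMM factors (0.739 to 1.20 in the population fit), its default low count filter (15877 and 12946 genes tested) and robust quasi-likelihood tests, two-sided, with Benjamini-Hochberg adjustment over all genes tested and a threshold of 0.05. The model held population and library, with 12 and 14 residual degrees of freedom. The library was kept as a block because all populations of a library share 1 culture, per the labels. SE is the size of the log2 fold change over the square root of F. Values from 1 library alone are differences of log2 CPM with a prior count of 2 and carry no test. Non-cycling progenitors are the equal mean of progenitors I and II. The code was tested on simulated data with known fold changes.

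Shares of cells used cells thinned to 5000 UMIs, with 607 shallower cells left out, and exact Clopper-Pearson 95% intervals (scipy 1.17.1, Python 3.11.15), which cover counting error only. Of the members past the test, the 4 highest and 4 lowest fold changes were named in each comparison, except the check of cycling against non-cycling progenitors and the S-class comparisons, where fewer are named, with 14 genes named throughout and the 2 highest and 2 lowest of the other pathway genes. Dbf4b was not matched to the gene table. The members and lists were chosen with earlier results of these data known, and the S-class comparisons and promoter motifs after seeing the data. Alternatives were RLE factors, DESeq2 1.42.0, no low count filter, no library term, only the compared populations, thinned cells, 34 cells per population and library, and leaving out the deepest 5% of cells, unannotated cells or 1 library.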

Additional observations from a re-analysis of the deposited data

How the results depend on the processing

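Of the values of single named genes recomputed under the alternatives, 1638 kept their direction and their side of the threshold, 79 lost a call, 15 gained one and 48 changed sign. Of the 79 lost calls, 36 came with 34 cells drawn per population and library and 11 with cells thinned to 5000 UMIs, settings with fewer UMIs. Of the changes of sign, 5 were of genes that had passed with the main settings, namely Prim1, Pole and Prim2 with 34 cells drawn and Orc3 and Dbf4 in thinned S cells; the others had not passed, and Cdc6 had 6 and 2 UMIs in mid deuterosomal cells. The cause of the changes below was not tested, except that the smaller draws hold fewer UMIs by construction. With the library in the model, every p-value rests on how far population differences varied between only 2 libraries, and leaving 1 out allows no test.

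With 34 cells drawn, 11 members rose in early deuterosomal cells over non-cycling progenitors, and 10 rose and 7 fell in mid deuterosomal cells over non-cycling progenitors. In mid over early 1 rose and 8 fell, in late over mid 0 rose and 2 fell, and in MCCs over non-cycling progenitors 2 rose and 7 fell. The counts over all genes tested on this draw are given with each comparison above. In mid deuterosomal cells over cycling progenitors 0 were higher (edgeR; 0 also at an unadjusted p under 0.05) and the members' median log2 fold change was −1.91; for MCCs the median was −0.73 and for cycling over non-cycling progenitors 2.61. Changes of sign in that draw were Cdc6 (−1.64), Mcm10 (−1.64), Mcm5 (−0.71), Pole (−0.56) and Prim1 (0.39) in early deuterosomal cells over non-cycling progenitors, Cdc6 (−1.59) and Pole (−0.092) in mid over non-cycling, Cdc6 (0.041) and Clspn (−0.30) in mid over early, Cdc6 (1.88) and Mcm10 (−0.89) in late over mid, and Cdc6 (0.58) and Prim2 (−0.78) in MCCs.

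Without the library as replicate block, 0 members fell in early deuterosomal cells by edgeR (2 at an unadjusted p under 0.05) and 3 rose in mid over early. In late over mid 6 fell, and 1 was higher in S early deuterosomal cells over S cycling progenitors. Of all genes tested, 1111, 2559 and 664 of 15877 and 2066 of 12946 were called in these directions, in that order. Clspn went to −0.014 in mid over early and −0.032 in late over mid. The other counts of members stayed within 1.5 times the main ones without this block.

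With DESeq2, 1 member fell in early deuterosomal cells, 6 rose in mid over early and 7 fell in late over mid with a median of 0.18. In the S mid and S early comparisons 1 was higher each. Of all genes tested, 3271, 3931 and 1436 of 15877 and 3173 and 2378 of 12946 were called in these directions, in that order. Clspn was −0.042 in mid over early and Cdc6 0.082 in late over mid. With RLE factors the median of late over mid was 0.19, Clspn was −0.035 in mid over early and Cdc6 0.060 in late over mid. With the same factors 1 member was higher in each S comparison, where 3222 and 2394 of 12946 genes tested were higher. In thinned cells 1 member fell in early deuterosomal cells (median 0.77), and the median of cycling over non-cycling progenitors was 2.94 with Orc3 at 0.10. By edgeR 0 members were higher in S/G2 mid, S mid and S early deuterosomal cells (1, 1 and 0 at an unadjusted p under 0.05). Of all genes tested in thinned cells, 2268 of 13853 fell in early deuterosomal cells. In the 3 class comparisons 3045, 2071 and 1461 of 10440 were higher. In the same cells Cdc45 (0.050) and Clspn (−0.17) changed sign in mid over early, Cdc6 (0.97), Pole (−0.51) and Clspn (−0.038) in late over mid, Pole (0.24) in MCCs, Orc3 (−0.0024) in the S mid comparison, and Orc3 (−0.15), Cdt1 (−0.13) and Dbf4 (−0.033) in the S early one.

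Without the low count filter Clspn was −0.00044 in mid over early and −0.0028 in late over mid, and the median of cycling over non-cycling progenitors was 2.82. Without this filter 2 members were higher in S/G2, where 5249 of 23836 genes tested were higher. With only the compared populations that median was 2.93 and Clspn was −0.087 in mid over early. Without the deepest 5% of cells the medians were 0.76 for early over non-cycling, −2.30 for mid over cycling, 0.14 for late over mid, 2.97 for cycling over non-cycling and −2.13 in S/G2. In that setting 6 members rose in mid over early, and 0 were higher in the S mid comparison by edgeR (1 at an unadjusted p under 0.05). Of all genes tested, 3513 of 15481 and 2989 of 12682 were higher in these 2 comparisons. Clspn (−0.16, mid over early), Cdc6 (0.19, late over mid) and Pole (0.038, MCCs) changed sign without the deepest cells. Without unannotated cells the medians were −2.24 for mid over cycling, 0.14 for late over mid and 2.92 for cycling over non-cycling, 7 members rose in mid over early, Clspn was −0.10 there and Cdc6 was 0.023 in late over mid. Without thinning the shares of mid deuterosomal cells with a UMI were 64.5% and 63.5% for MCM2-7, 93.3% and 93.5% for origin recognition and loading, and 97.3% and 95.5% for clamp and loader.

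Taking each library alone, the median was 2.82 to 2.86 for cycling over non-cycling progenitors, 0.023 to 0.085 for late over mid and −2.03 to −1.79 in the S early comparison. Changes of sign between the libraries were Orc1 (−0.46 to 0.10), Cdc6 (−0.86 to 0.12), Cdc45 (−0.59 to 0.12) and Clspn (−0.087 to 0.085) in mid over early, Cdc6 (−0.15 to 0.21), Mcm10 (−0.90 to 0.22) and Clspn (−0.13 to 0.063) in late over mid, and Cdc6 (−0.45 to 0.18), Mcm10 (−0.81 to 0.39) and Cdc45 (−0.11 to 0.50) in MCCs.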

Other observations

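Populations outside the lineage also carried replication transcripts at different levels in the libraries. Summed over the 47 genes, microglia stood at 1428 CPM in replicate 1 (289 cells) and 2407 CPM in replicate 2 (43 cells), and MCM2-7 at 279 and 554 CPM. By class, 100 of 289 microglia (34.6%) of replicate 1 and 1 of 43 (2.33%) of replicate 2 were G0. OPCs stood at 3595 and 5369 CPM over the 47 genes and at 603 and 1026 CPM over MCM2-7 (68 and 34 cells), with 23 of 68 and 17 of 34 cells in S and 19 cells of replicate 1 in G0. Neuroblasts, with 81 and 123 cells, were near cycling progenitors at 3688 and 4173 CPM, and oligodendrocytes, of which 95.3% and 97.4% were G0, stood at 995 and 938 CPM. After thinning to 5000 UMIs all 34 OPCs of replicate 2 had an MCM2-7 UMI (exact interval 89.7% to 100%), as had 76.1% of 67 in replicate 1. These values come from 1 library each and were not tested.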
